A study of Mus musculus with 9 samples.

Results

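The enzymes that make and break down prostaglandins and leukotrienes were followed in primary mouse microglia, the resident macrophages of the brain. The set holds 10 named genes, and its members were all probes whose annotated symbol is one of them. Of the 45281 probes on the array, 18 carried the symbol of a member, and they covered 9 of the 10 genes. No probe was annotated to Ptgs1, the constitutive cyclooxygenase, which is not analysed here. The cells were isolated from cortical tissue of C57BL/6J pups, 1 to 5 days old, whose cannabinoid receptor 2 gene was intact (CB2+/+). Illumina bead arrays measured 3 groups with 3 arrays each. One group had no stimulus, another received lipopolysaccharide (LPS) with interferon-gamma (IFNγ, 20 ng/ml) over 16 h, and the last received the cytokine interleukin-4 (IL-4) at 100 U/ml over 48 h. All 9 arrays are of the same strain and genotype. The stimuli also differ in time, so stimulus and time cannot be told apart, and a culture time for the cells without stimulus is not given in the sources used here. Nor do they state that replicates came from different cultures, so p-values reflect the spread between these arrays, which may be technical.

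Prostaglandins and leukotrienes are lipid messengers made from arachidonic acid. Cyclooxygenases turn it into prostaglandin H2, which terminal synthases convert to prostaglandin E2 (Ptges), prostaglandin D2 (Hpgds) or thromboxane A2 (Tbxas1), and the dehydrogenase Hpgd inactivates prostaglandins. In the leukotriene branch, 5-lipoxygenase (Alox5) works with its activating protein (Alox5ap) to give leukotriene A4, from which Lta4h makes leukotriene B4 and Ltc4s makes leukotriene C4. In brain inflammation microglia are a known source of prostaglandin E2.

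After LPS + IFNγ the genes for inducible cyclooxygenase and prostaglandin E synthase rose, while the prostaglandin-degrading dehydrogenase and 2 members of the leukotriene branch, Alox5ap and Ltc4s, fell. Of the 8 members that could be tested, 2 rose (Ptgs2, Ptges) and 3 fell (Hpgd, Alox5ap, Ltc4s), and Hpgds, Tbxas1 and Alox5 did not pass. In the same comparison 6.12% of all 9391 measured genes rose and 12.2% fell (18.3% in either direction). The median log2 difference was -1.54 over the 8 members and -0.22 over all genes. After IL-4 none of the 8 passed, where 0.0639% of all genes did. Between the stimuli, 2 members were higher after LPS + IFNγ and 4 were lower (Tbxas1 in addition), where 5.69% and 11.6% of all genes were called, or 17.3% in all. By the F-test over the 3 groups 6 of the 8 differed, where 17% of all genes did. The 3 arrays of LPS + IFNγ lay beyond the 3 unstimulated ones for 2 members upward and 6 downward, where 14% and 27% of all genes did so. Against IL-4 these counts were 2 and 5 (12.6% and 26.8% of all genes), and for IL-4 against no stimulus they were 1 and 3 (10% and 8.23%). The tests were limma's moderated test on normalized log2 signals with Benjamini-Hochberg adjustment over all kept probes, at a threshold of 0.05.

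Facts of the arrays bear on these values. Mean intensity ran from 311 to 379 on 8 arrays, and 14475 to 16435 probes were detected on each (detection p under 0.05). LPS + IFNγ replicate 2 stood apart, with 6208 probes detected at a mean intensity of 112, and its normalized values correlated across probes with its group mates at 0.765 and 0.761, against 0.980 between those mates. All arrays were kept, and results that turn on this array are also given without it. Slides were inferred from the number that opens each array's code, which the labels do not name as a slide. By that number all unstimulated arrays were on slide 2, with replicate 3 of each stimulus, while slide 1 carried replicates 1 and 2 of both stimuli. All 14 microglia and macrophage markers with a probe were detected on every unstimulated and IL-4 array, and 13, 9 and 12 on LPS + IFNγ replicates 1, 2 and 3. By limma's test 6 of the 14 fell after LPS + IFNγ and none rose, where 12.2% and 6.12% of all genes did. In these bulk samples fewer cells of a type and less RNA per cell cannot be told apart. Levels below are normalized log2 signals and are compared for a probe between arrays, not between genes.

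The promoters of some of the genes that passed the test are shown: Ptgs2 and Ptges, which rose, and Hpgd, which fell the furthest. Those of Ltc4s and Tbxas1, which also passed in a comparison, are not shown. Each line gives the 250 bases before the annotated start, 5′ to 3′ on the gene's strand, from RefSeq on build GRCm38.p6. Capitals mark matches, on either strand, to the motifs searched: NF-kB (GGG and CC with any 5 bases between), C/EBP (TTGCNNAA), a STAT6-type spacing (TTC and GAA with any 4 bases between) and an ETS core (GAGGAA).
Ptgs2, chr1:150099781-150100030, + strand: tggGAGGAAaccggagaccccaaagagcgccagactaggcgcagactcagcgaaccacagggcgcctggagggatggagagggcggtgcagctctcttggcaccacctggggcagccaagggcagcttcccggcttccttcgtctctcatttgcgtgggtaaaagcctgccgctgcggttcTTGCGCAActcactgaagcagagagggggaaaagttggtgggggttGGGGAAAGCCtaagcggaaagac
Ptges, chr2:30903298-30903547, - strand: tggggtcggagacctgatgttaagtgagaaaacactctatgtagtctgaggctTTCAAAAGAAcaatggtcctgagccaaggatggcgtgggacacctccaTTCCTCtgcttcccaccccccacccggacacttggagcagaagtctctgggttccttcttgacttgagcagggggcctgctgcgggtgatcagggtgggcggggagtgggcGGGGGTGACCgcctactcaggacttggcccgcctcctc
Hpgd, chr8:56294302-56294551, + strand: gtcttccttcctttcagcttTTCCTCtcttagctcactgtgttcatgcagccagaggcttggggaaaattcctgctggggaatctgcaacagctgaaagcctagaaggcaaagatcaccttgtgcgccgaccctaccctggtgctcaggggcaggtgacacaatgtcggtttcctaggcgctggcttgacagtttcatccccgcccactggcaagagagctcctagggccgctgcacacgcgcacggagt

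The NF-kB letters lay 23 to 14 bases before the start of Ptgs2 (GGGGAAAGCC) and 38 to 29 bases before that of Ptges (GGGGGTGACC), and the Hpgd window held no match to them. The windows of Alox5, which did not pass, and of Lta4h, which was not detected, held such matches too. Of 32851 RefSeq promoter windows of this length 45.8% hold these letters, so a match is common. Ptgs2 also held a C/EBP match 69 to 62 bases before the start (TTGCGCAA, which reads the same on both strands), a motif found in 9.56% of windows. The STAT6-type match of Ptges lay 197 to 188 bases before its start, and 5.85% of windows hold one. All 3 windows shown held the ETS core, as do 23.3% of windows. The searches for a STAT GAS element (TTCNNNGAA), an AP-1 site (TGANTCA), a CRE half-site (TGACG), an E-box (CACGTG) and a TATA box (TATAAA) gave no match in the 3 windows shown. A match describes the letters and is not evidence of binding.

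Ptgs2 encodes the inducible cyclooxygenase, which commits arachidonic acid to prostaglandins. Its probe read 7.44, 9.91 and 8.09 on LPS + IFNγ replicates 1, 2 and 3, against 4.61, 4.37 and 4.41 without stimulus. It was detected on all 3 LPS + IFNγ arrays and on none of the unstimulated arrays, and the groups do not overlap. Elsewhere only IL-4 replicate 2 detected it. The probe therefore passed the filter on dim probes only through the LPS + IFNγ group, so this detection pattern adds no independent support. The log2 difference was 4.01 ± 0.54 (SE, n = 3 arrays per group, limma adjusted p = 0.00190), or at least 13.2-fold higher once each undetected value was set to the lowest value detected on that array. The highest of the 3 values is that of the weak array. Its intensity as deposited was 145, against 286 on replicate 1 and 421 on replicate 3, so it is the highest only after normalization. Without that array the rise was at least 8.05-fold. The second Ptgs2 probe was not detected on any array.

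Ptges, which isomerises prostaglandin H2 to prostaglandin E2, rose as well. It read 6.04, 4.85 and 5.30 without stimulus and 10.91, 10.33 and 9.95 after LPS + IFNγ. Every LPS + IFNγ array lay above every unstimulated one, by more than 3 log2 units. For the weak array this holds only after normalization, as its deposited intensity was 164, against 172 on unstimulated replicate 1. The difference was 5.00 ± 0.36 (SE, n = 3 per group, limma adjusted p = 0.00012), a 31.9-fold rise. It ran from 4.72 to 5.32 with each array left out in turn. Among the 3428 genes detected on all 6 arrays of this comparison it ranked 16 from the highest. The second Ptges probe was detected on the 3 LPS + IFNγ arrays alone and was at least 13.4-fold higher there. It passed the filter on dim probes through that group alone, so it adds no independent support. With median centring in place of quantile normalization the rise of Ptges was 3.93, with a limma adjusted p of 0.0718.

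The levels of the 8 members on each array show which groups separate.

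**Figure D1:**
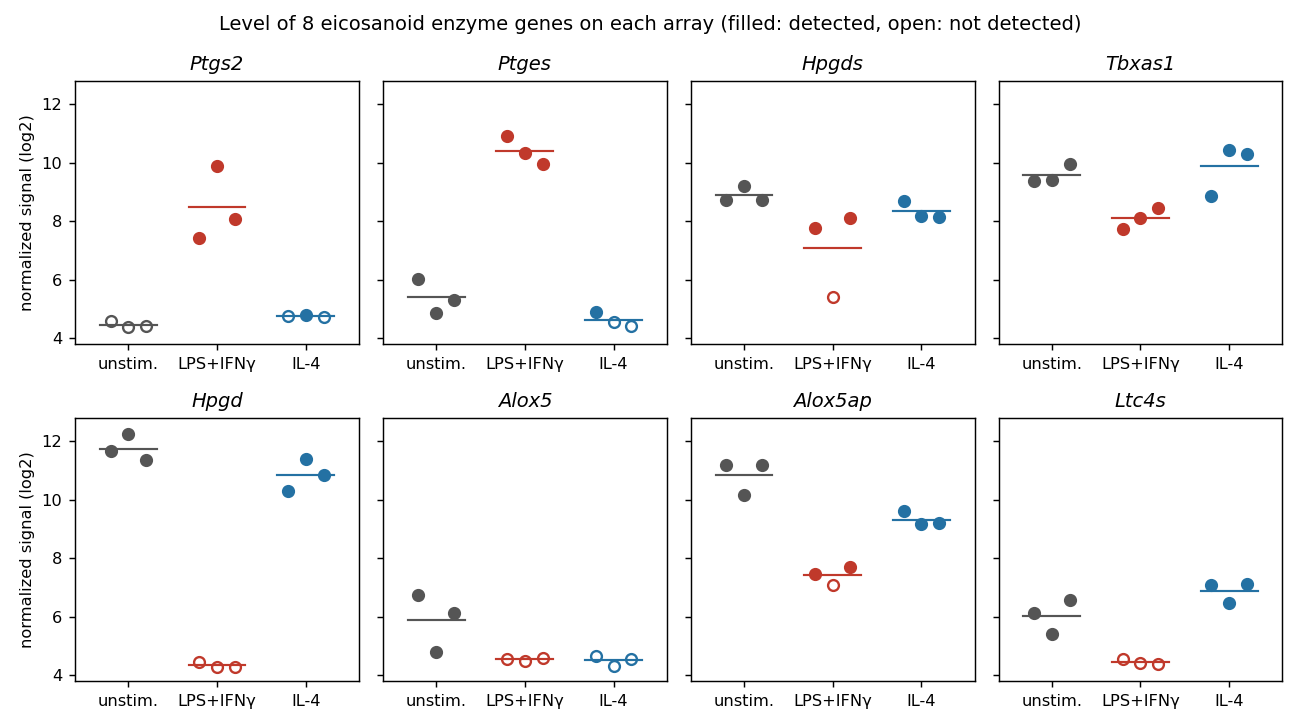
Normalized log2 signal (y axis) of 8 eicosanoid enzyme genes on the 3 unstimulated, 3 LPS + IFNγ and 3 IL-4 arrays (x axis), one panel per gene; points are arrays in replicate order, open points were not detected, and the line is the group mean. Ptgs2 and Ptges stand high after LPS + IFNγ, while Hpgd falls from between 11.34 and 12.23 without stimulus to undetected values.

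Hpgds and Tbxas1, the members that make other prostanoids, did not rise. Hpgds, the haematopoietic prostaglandin D synthase, read 8.74, 9.23 and 8.74 without stimulus and 7.78, 5.41 and 8.10 after LPS + IFNγ. The 5.41 is the weak array, on which the probe was not detected. The difference was -1.81 ± 0.63 (SE, n = 3 per group, limma adjusted p = 0.0903), and without the weak array it was -0.96 with an adjusted p of 0.0151. The second Hpgds probe gave -1.30 (adjusted p = 0.0600) and, without that array, -0.88 (adjusted p = 0.0376). For the first probe, leaving out LPS + IFNγ replicate 3 instead gave -2.31 (adjusted p = 0.0469). The sign was the same for both probes, and the size depended on the weak array.

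Tbxas1, thromboxane A synthase, read 9.37, 9.41 and 9.98 without stimulus, 7.75, 8.10 and 8.46 after LPS + IFNγ, and 8.88, 10.45 and 10.31 after IL-4. The LPS + IFNγ arrays lay below all others. Against no stimulus the difference was -1.48 ± 0.43 (SE, n = 3 per group, limma adjusted p = 0.0502), which sits at the threshold. The call turns with the processing: the adjusted p was 0.0477 when quantile normalization was applied before the log2 step, an order that was run first and replaced after its results had been seen, and 0.0349 without the weak array. With slide as a block the difference was -1.09, with an adjusted p of 0.308. Against IL-4 the difference was -1.78 ± 0.43 (adjusted p = 0.0264), and the call was lost without LPS + IFNγ replicate 1 (adjusted p = 0.0717), IL-4 replicate 2 (0.106) or IL-4 replicate 3 (0.111). Of its other probes, 1 gave -2.57 against no stimulus (adjusted p = 0.0738), 1 gave -0.31 (adjusted p = 0.622) and 1 was not detected on any array.

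Hpgd, the 15-hydroxyprostaglandin dehydrogenase that inactivates prostaglandin E2, had the largest fall. Its single probe read 11.66, 12.23 and 11.34 without stimulus and 10.31, 11.39 and 10.84 after IL-4. After LPS + IFNγ it read 4.45, 4.29 and 4.27 and was not detected on any array. The difference from no stimulus was -7.41 ± 0.33 (SE, n = 3 per group, limma adjusted p = 2.49e-05), and as a bound Hpgd was at least 65.8-fold lower, or at least 116-fold lower without the weak array, whose lowest detected value is 7.34 against 4.74 to 4.92 on the others. Against IL-4 it was at least 35.3-fold lower (limma adjusted p = 3.53e-05). Within slide 2, which holds 1 LPS + IFNγ array, the difference from no stimulus was -7.47 (limma adjusted p = 0.000376).

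In the leukotriene branch, Alox5ap presents arachidonic acid to 5-lipoxygenase. It read 11.19, 10.16 and 11.18 without stimulus, 9.60, 9.16 and 9.19 after IL-4, and 7.46, 7.08 and 7.71 after LPS + IFNγ. The 3 groups do not overlap, and LPS + IFNγ is lowest. Against no stimulus the LPS + IFNγ difference was -3.43 ± 0.33 (SE, n = 3 per group, limma adjusted p = 0.00043), and the second probe gave -4.34 (adjusted p = 0.00590). Against IL-4 it was -1.90 ± 0.33 (adjusted p = 0.00654). The probe was not detected on the weak array, and with that value raised to the lowest detected one the difference from no stimulus was -3.34.

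Ltc4s, leukotriene C4 synthase, was lower after LPS + IFNγ than in both other groups. It read 6.11, 5.40 and 6.57 without stimulus, 7.09, 6.47 and 7.11 after IL-4, and between 4.37 and 4.54 after LPS + IFNγ. Detection held on all unstimulated and IL-4 arrays, while no LPS + IFNγ array detected it. The LPS + IFNγ difference was -1.59 ± 0.33 from no stimulus (SE, n = 3 per group, limma adjusted p = 0.0122) and -2.45 ± 0.33 from IL-4 (adjusted p = 0.00194). As bounds these were at least 1.25-fold and at least 2.27-fold lower (at least 2.21-fold from no stimulus without the weak array). The limma adjusted p for the difference from no stimulus was 0.0505 without unstimulated replicate 1 and 0.0892 with slide as a block. With undetected values raised neither call held (limma adjusted p = 0.731 and 0.278). The weak array is then set to 7.34, above every unstimulated and IL-4 value of Ltc4s, so raising cannot show a fall on that array.

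Alox5, 5-lipoxygenase itself, was dim. Its brightest kept probe read 6.74, 4.80 and 6.13 without stimulus, between 4.50 and 4.57 after LPS + IFNγ and between 4.31 and 4.66 after IL-4. It was detected on the 3 unstimulated arrays and on no stimulated array, and it passed the filter on dim probes through that group alone. The differences were -1.35 after LPS + IFNγ (limma adjusted p = 0.0696) and -1.39 after IL-4 (adjusted p = 0.850). The other 2 probes were detected on unstimulated replicates 1 and 3 only, where they read 8.12 and 7.43, and 6.11 and 5.64, and not on replicate 2. All 3 probes therefore placed unstimulated replicate 2 lowest of its group. With undetected values raised, the group means of this probe were 1.14-fold lower after LPS + IFNγ and 2.19-fold lower after IL-4. As neither difference passed limma's test, these are not evidence of a fall. Unstimulated replicate 2, at 4.80, lay near the lowest detected value of its array, 4.75. Leaving out unstimulated replicate 2 gave an LPS + IFNγ difference of -1.90 (limma adjusted p = 0.00708), but this is against undetected values. With those raised and all arrays kept the difference was -0.19. Raising sets the weak array to 7.34, above every unstimulated value of this probe, so it cannot show a fall on that array. Lta4h, leukotriene A4 hydrolase, has 1 probe, which was not detected on any array.

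**Figure D2:**
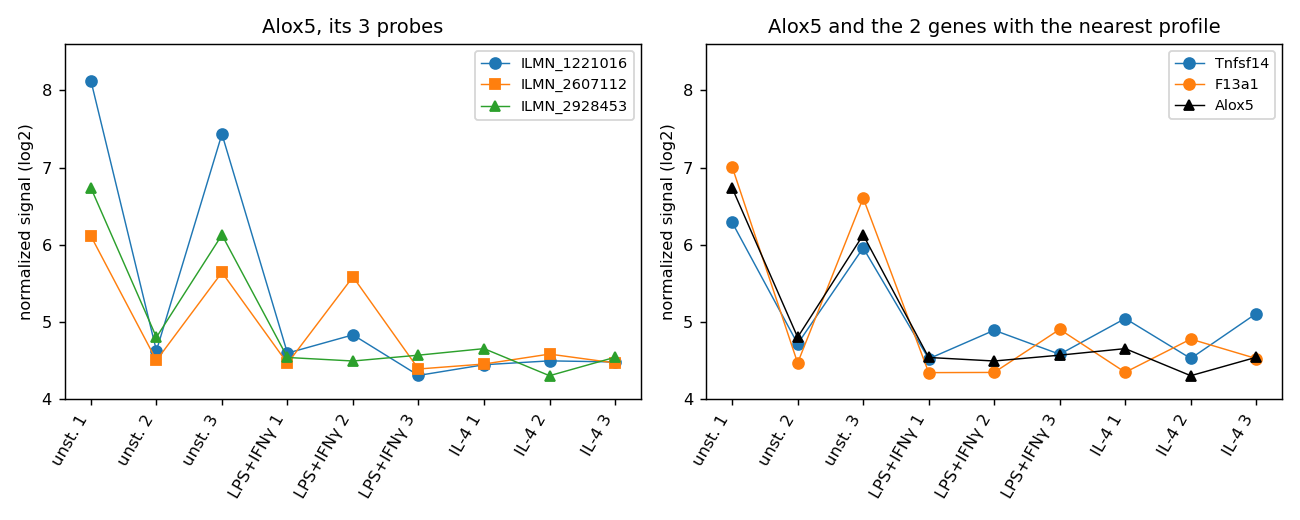
Normalized log2 signal (y axis) on each of the 9 arrays (x axis) for the 3 Alox5 probes (left) and for the brightest kept Alox5 probe beside Tnfsf14 and F13a1, the genes with the nearest profile (right). Unstimulated replicates 1 and 3 stand above replicate 2 for all 3 probes.

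After IL-4 none of the 8 members passed limma's test, and 4 had an unadjusted p under 0.05 (Alox5ap, Alox5, Hpgd and Ltc4s), where 4.12% of all genes did. Alox5ap differed by -1.52 ± 0.33 (SE, n = 3 per group, unadjusted p = 0.00146, limma adjusted p = 0.415), with all 3 IL-4 arrays below all 3 unstimulated ones, as were 8.23% of all genes. It ranked 31 from the lowest of the 7634 genes detected on all 6 arrays. With limma's array weights, which give LPS + IFNγ replicate 2 a weight of 0.0396, Alox5ap (adjusted p = 0.00269) and Alox5 (adjusted p = 0.0255) passed, the latter on a probe detected without stimulus alone. Hpgd differed by -0.90 and Ltc4s by 0.86, and both had overlapping groups. Within equal replicate numbers, Hpgd differed by -1.35, -0.84 and -0.50 and Ltc4s by 0.97, 1.07 and 0.53. Each had the same sign in 3 of 3 pairs, but so did every other member except Tbxas1. The share of all genes with such pairs was not computed, so the pairs do not set Hpgd and Ltc4s apart. With the replicate number as a block neither passed (limma adjusted p = 1 for both). For Ptges the difference was -0.77, with a 95% interval from -1.60 to 0.06, and for Ptgs2 it was 0.29, from -0.93 to 1.51.

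The 3 differences of each member are shown side by side. The comparisons of LPS + IFNγ and of IL-4 with no stimulus share their control arrays.

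**Figure D3:**
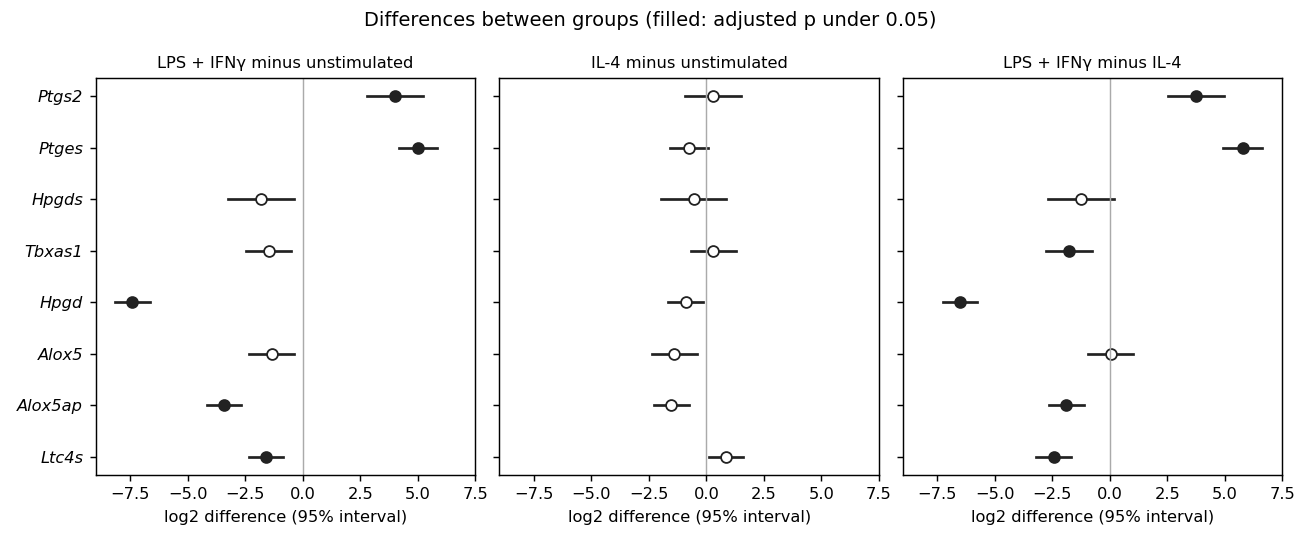
Log2 difference (x axis, points) with its 95% interval (bars) for 8 members (y axis) in the 3 comparisons; filled points passed limma's test at an adjusted p under 0.05. Filled points mark 5 members for LPS + IFNγ against no stimulus, none for IL-4 against no stimulus and 6 for LPS + IFNγ against IL-4.

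The genes around these enzymes were described from 5 lists with 67 genes, of which 34 were measured. After LPS + IFNγ 2 rose and 7 fell, where 6.12% of all genes rose and 12.2% fell, and their median difference was -0.45. Among 9 measured genes of arachidonate release and reuptake, Acsl4, which activates arachidonic acid for return to phospholipids, rose by 1.25 ± 0.31 (log2, SE, limma adjusted p = 0.0263). Its 2 other kept probes gave 0.54 and 0.27 and did not pass (adjusted p = 0.489 and 0.558). Pla2g15, the lysosomal phospholipase A2, read between 12.40 and 12.73 without stimulus and between 9.35 and 9.82 after LPS + IFNγ, and fell by 3.10 (limma adjusted p = 0.00013). For both genes the groups do not overlap. Of 5 other prostanoid enzymes 1 passed: Cbr1, a carbonyl reductase that can act on prostaglandins, fell by 2.38. It was not detected on the weak array, and its difference was -1.76 without that array and -1.37 with the undetected value raised. Of 3 measured prostanoid receptors and transporters, Ptger2, a prostaglandin E2 receptor, fell by 0.82, but it was not detected on any LPS + IFNγ array. With undetected values raised its difference was 0.29. The weak array is then set to 7.34, above every unstimulated Ptger2 value, so raising cannot show a fall on that array. Without the weak array the difference was -0.76 (limma adjusted p = 0.0224), or at least 1.44-fold lower. The second Ptger2 probe gave -0.065 (limma adjusted p = 0.889).

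Of 10 genes of leukotriene reception, transport and inactivation, 1 passed. Cysltr1, a receptor for cysteinyl leukotrienes, read 9.41, 8.28 and 8.98 without stimulus and 6.41, 7.81 and 5.54 after LPS + IFNγ, and fell by 2.30 (limma adjusted p = 0.0317). Without the weak array its difference was -2.92. Dpep2, a dipeptidase that converts leukotriene D4, did not pass on its brightest probe (-1.31, limma adjusted p = 0.215), but passed on its other 2 probes (-1.56 and -2.50, adjusted p = 0.0215 and 0.0112) and, without the weak array, on the brightest (-2.09, adjusted p = 0.00326). In the same way other probes passed for Cyp4f16 (-1.10, adjusted p = 0.0417) and for Pla2g12a, a secreted phospholipase A2 (-1.15, adjusted p = 0.0146), whose brightest probes did not. The Dpep2 probe at -1.56 was not detected on any LPS + IFNγ array. The passing Cyp4f16 and Pla2g12a probes were each detected on 1 of those arrays. The third Cyp4f16 probe did not pass (-0.80, limma adjusted p = 0.132). Of 7 other lipid mediator genes 1 rose and 3 fell. Fpr2, a receptor for formyl peptides and for the lipid mediator lipoxin A4, read 11.13, 9.15 and 9.93 without stimulus and 13.72, 14.18 and 13.63 after LPS + IFNγ, and rose by 3.77 ± 0.76 (adjusted p = 0.0112). Mgst3, a microsomal glutathione transferase, fell by 2.91 (the second probe gave -2.70) and Ephx1, microsomal epoxide hydrolase, fell by 2.69. Without the weak array the Ephx1 difference was -3.58. Mgst2, which can conjugate leukotriene A4 with glutathione, fell by 0.72, and without the weak array its difference was -0.61 (limma adjusted p = 0.0259). With undetected values raised the Mgst2 difference was 0.38, but the weak array is then set to 7.34, above every unstimulated value. None of the 34 passed limma's test after IL-4 (0.0639% of all genes did), and 2 had an unadjusted p under 0.05 (4.12% of all genes did).

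Between the stimuli, 2 of the 34 were higher after LPS + IFNγ and 6 were lower, where 5.69% and 11.6% of all genes were. Fpr2 differed by 6.37 and Acsl4 by 1.41, while Pla2g15 differed by -3.55, Mgst3 by -2.73, Ephx1 by -2.34, Cbr1 by -2.32, Ptger2 by -1.07 and Ggt5, which trims leukotriene C4, by -0.91. With undetected values raised, the differences of Ptger2 and Ggt5 were 0.033 and 0.35. The weak array is then set to 7.34, above every IL-4 value of both genes, so raising cannot show a fall on that array. Without the weak array the differences were -1.02 and -0.86 (limma adjusted p = 0.00629 and 0.0289). The second Ggt5 probe did not pass. The counts against no stimulus rest on the arrays used: without the weak array 4 genes rose and 10 fell, with slide as a block 0 rose and 2 fell, and there were 3 falls without unstimulated replicate 2, unstimulated replicate 3 or LPS + IFNγ replicate 3, and 4 without unstimulated replicate 1 or IL-4 replicate 3. One gene rose in place of 2 without unstimulated replicate 1 or 2 or LPS + IFNγ replicate 1. Between the stimuli the counts were 3 and 11 without the weak array, 1 and 3 without IL-4 replicate 2, and 1 and 2 without IL-4 replicate 3.

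**Figure D4:**
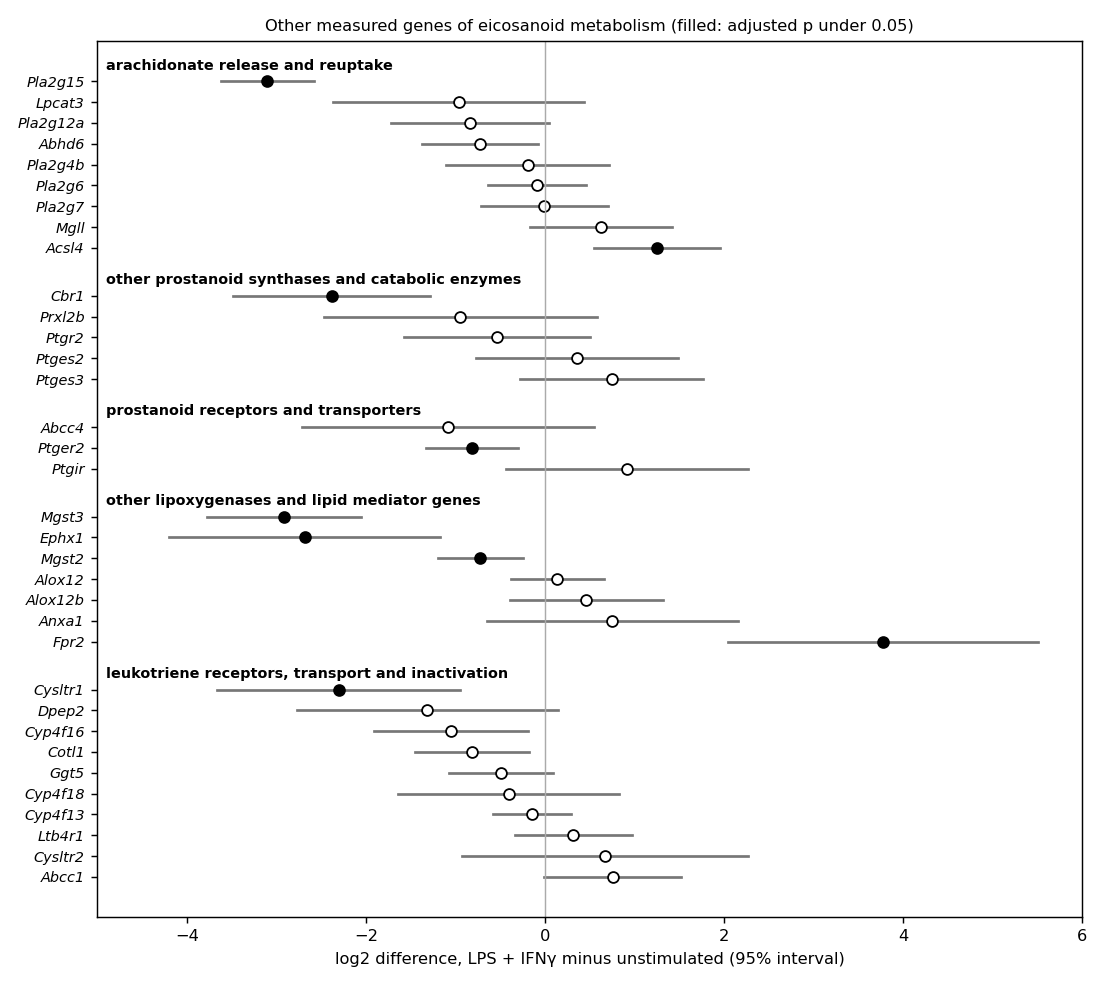
Log2 difference between LPS + IFNγ and no stimulus (x axis) with its 95% interval for the 34 other measured genes of eicosanoid metabolism (y axis), by list; filled points passed limma's test. Fpr2 (3.77) and Acsl4 (1.25) are filled to the right of 0, and the 7 falls lie between -3.10 and -0.72.

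Other cells can express these enzymes, and their markers were read on the same arrays. Mast cells make prostaglandin D2 and leukotriene C4. Of 10 mast cell and basophil markers 8 were not detected on any array, among them Cpa3, Kit, Ms4a2 and Fcer1a, and 1 was measured. That was Hdc, histidine decarboxylase, which read 9.58, 9.67 and 8.59 after LPS + IFNγ and between 4.53 and 5.52 elsewhere. The summed level of the list was 214 to 221 without stimulus, 591 to 1240 after LPS + IFNγ and 217 to 249 after IL-4 (linear normalized signal). Of 9 neutrophil markers with a probe, 7 were not detected on any array, and the summed level was 198 to 256, 282 to 521 and 188 to 200 in the same order. S100a8 read 7.40, 7.62 and 6.67 after LPS + IFNγ and 5.83, 4.88 and 6.32 without stimulus. Endothelial, mural and fibroblast markers summed to 997 to 1606 without stimulus, 787 to 1280 after LPS + IFNγ and 3543 to 6181 after IL-4, with Cldn5, Pdgfrb, Rgs5 and Tek at undetected levels throughout. Flt1 read 11.57, 11.62 and 11.59 after IL-4 against 8.49, 10.32 and 9.26 without stimulus, and Pecam1 read 9.03, 6.88 and 8.14 against 6.29, 5.20 and 5.97. Neither gene's groups overlap, and neither passed limma's test (adjusted p = 0.874 and 0.805). The oligodendrocyte lineage list summed to 1189 to 1445 without stimulus, 1050 to 2484 after LPS + IFNγ and 977 to 1490 after IL-4, with Mog, Olig2 and Sox10 undetected on all arrays. Of its 6 measured genes, Cnp (1.58, limma adjusted p = 0.0260) and Mag (1.67, adjusted p = 0.0283) rose after LPS + IFNγ and Mbp fell by 2.54 (adjusted p = 0.0210). The astrocyte sum was 278 to 396, 345 to 487 and 287 to 1986, and its highest value is that of IL-4 replicate 1, where Gja1 read 10.68. The summed level of the microglia and macrophage list was 58805 to 77717, 24067 to 45921 and 49061 to 56175. The part of these cells in the differences of the enzymes was not tested.

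For each member the 2 genes with the nearest centred profile over the 9 arrays were found among 9125 genes, by the root mean square (RMS) difference in log2 units. Ptgs2 lay nearest to Klra2 (RMS 0.40) and Trim30b (0.45), and Ptges to Gpr18 (0.52) and Clec4e (0.52). Hpgd lay nearest to Slco2b1, an organic anion transporter (0.47), and then to Man2a2 (0.88). Slco2b1 read 11.69, 11.17 and 11.67 without stimulus and between 4.35 and 4.88 after LPS + IFNγ. Alox5ap lay nearest to Bmf (0.26) and Mfsd6 (0.33), and Ltc4s to Ets1 (0.27) and Clec4a3 (0.32). Tbxas1 lay nearest to Dlg3 (0.24) and Ydjc (0.26), and Hpgds to Klhl7 (0.17) and Xpc (0.21). Klhl7 and Xpc read 4.56 and 4.36 on the weak array, far under their other values, as Hpgds did. Alox5 lay nearest to Tnfsf14 (0.30) and F13a1 (0.31), which were lower on unstimulated replicate 2 than on replicates 1 and 3. The genes were picked for profiles like the member's, so these shared low values follow from the choice and are not separate observations.

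Slide was examined within each slide that allowed it. Within slide 2, which holds 1 LPS + IFNγ array and all unstimulated ones, Ptgs2 differed from no stimulus by 3.63 (limma adjusted p = 0.000827), Ptges by 4.55 (0.00264) and Alox5ap by -3.13 (0.00736). In the same arrays Ltc4s differed by -1.66 (adjusted p = 0.04995) and Tbxas1 by -1.13 (0.0542). The lone LPS + IFNγ array is assumed there to vary like the unstimulated arrays, the only group with more than 1 array on slide 2. Within slide 1, with 2 arrays of each stimulus, no probe passed, and the differences between the stimuli were 3.90 for Ptgs2, 5.88 for Ptges, -6.48 for Hpgd, -1.74 for Tbxas1, -2.11 for Alox5ap and -2.31 for Ltc4s.

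The sizes depend on the background correction. With no correction the differences from no stimulus were 2.10 for Ptgs2, 3.39 for Ptges, -5.01 for Hpgd, -2.82 for Alox5ap and -0.54 for Ltc4s, and all 5 passed (limma adjusted p between 3.98e-05 and 0.0411). Without LPS + IFNγ replicate 2 the members that fell were 5 in place of 3, with Hpgds and Tbxas1 added. The 5 members that passed against no stimulus kept their sign under each alternative processing that was run.

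**Figure D5:**
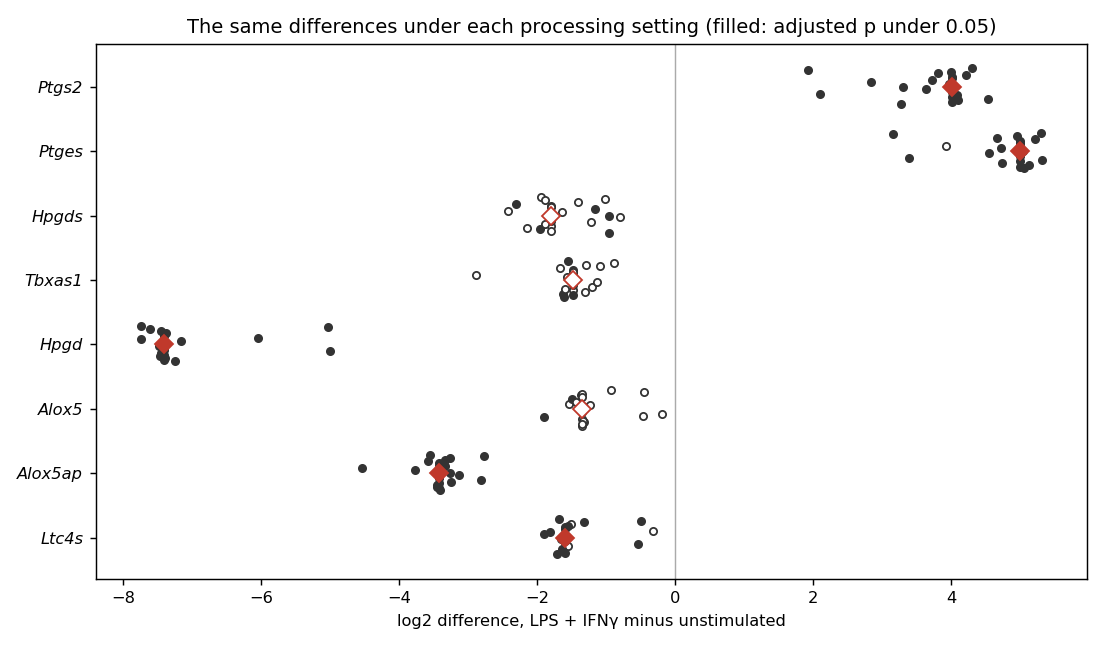
Log2 difference between LPS + IFNγ and no stimulus (x axis) for 8 members (y axis) as reported (diamonds) and under every alternative processing (circles); filled symbols have an adjusted p under 0.05. Hpgd stays left of -4 and Ptges right of 3 throughout, while Ptges has 1 open symbol (median centring) and Ltc4s, Hpgds, Tbxas1 and Alox5 hold both filled and open symbols.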

How the data were processed

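Per the file headers, the authors deposited scanner intensities on a linear scale with a detection p-value for each of 45281 probes. A second deposited table holds log2 values. On slide 2, the only one checked, a typical probe lay at a constant shift from its quantile-normalized log2 intensities, but the shift differed between probes. On unstimulated replicate 2 a Tbxas1 probe with an intensity of 1222 was deposited at 9.38, and an Hpgds probe with 1007 at 9.41. Partek is named in the submitters' processing notes, with no role. Depth has no counterpart here: 3 arrays per group limit the precision.

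Background correction used limma 3.58.1 under R 4.3.3 (normexp from detection p-values, offset 16), followed by log2 and then quantile normalization. The opposite order of those last steps was run first, and the order was changed after its results had been seen. Probes detected (p under 0.05) on at least 3 of 9 arrays were kept (16895 probes, 9391 genes). One model of the 3 groups was fitted, with Benjamini-Hochberg adjustment within each comparison. The brightest kept probe on average stands for a gene. Symbols came from the platform annotation: 34885 probes carry 1 symbol, 18 several and 10378 none. The script was tested on simulated data.

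Named genes were all members, listed pathway genes past the threshold in any comparison, and the 2 nearest profiles per member. The members and lists were chosen with earlier results of these data known. Equal replicate numbers paired IL-4 with unstimulated arrays (correlation of deviations 0.366, 0.427 and 0.300, from the data and not the labels) and no other groups. Promoter sequences are RefSeq's, on GRCm38.p6. Of members that passed in a comparison, the promoters of Alox5ap, Ltc4s and Tbxas1 are not shown. Alternatives are given in the closing section.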

Additional observations from a re-analysis of the deposited data

How the results depend on the processing

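Alternatives were slide as a fixed or random block, single slides, a replicate block, array weights, a variance trend, other background, normalization, filter and value choices, and each array left out. Raising undetected values and quantile normalization before log2 were added after seeing the data. The latter was the order first run: it gave 2 members higher and 4 lower against no stimulus, with Tbxas1 passing (adjusted p = 0.0477), where the reported order gave 2 and 3 (adjusted p = 0.0502). The order was set with both results known. 

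Reversed signs were those of Ptgs2 after IL-4 with the deposited log2 table (-0.074) and of Alox5 between the stimuli without IL-4 replicate 2 (-0.064; the range over left-out arrays was -0.064 to 0.111), neither called. Counts of members against no stimulus moved to 1 higher under median centring and to 6 lower under a random slide block or array weights, and array weights called 2 members lower after IL-4. For all probes, LPS + IFNγ against no stimulus (2655 as reported) gave 1390 under median centring, 981 with slide as a block and 6165 with array weights; against IL-4 (2463) it gave 1321, and 6272 with array weights. IL-4 against no stimulus (10) gave 5 under median centring, 26 with the deposited table, 4 with slide as a block or within slide 2, 5 with the replicate block, 387 with array weights, 16 with a trend and 0 with undetected values raised. The replicate block changed 1 member's call: Tbxas1 against no stimulus passed (adjusted p = 0.0306). Within slide 1, with 2 arrays a group, 0 probes and so 0 members or pathway genes passed between the stimuli.

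Pathway genes against no stimulus (2 higher, 7 lower) were 0 higher under median centring, 1 with no filter, 0 and 2 with slide as a block, 1 and 4 with the replicate block, 5 and 12 with array weights, and 4 higher with undetected values raised. Between the stimuli (2 and 6) they were 1 higher under median centring, 11 lower with array weights and 3 lower with undetected values raised. After IL-4, array weights called 2 lower. 

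Leaving out each array in turn gave 1471 to 5354 probes against no stimulus, 3 to 52 for IL-4 and 1192 to 5042 between the stimuli. Members lower ranged from 2 to 5 against no stimulus and from 3 to 4 between the stimuli, with 2 higher each time. Pathway genes ranged from 1 to 4 higher and 3 to 10 lower against no stimulus, and from 1 to 3 higher and 2 to 11 lower between the stimuli. The largest counts came without LPS + IFNγ replicate 2. The cause of these moves was not tested.

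The balance of calls moved with these choices. Of genes called against no stimulus 33.5% were higher as reported, 2.85% under median centring and 53.3% with undetected values raised, and the median of all genes was -0.22, -1.01 and 0.31. Raising lifts undetected values of LPS + IFNγ replicate 2 to 7.34, against 4.74 to 4.92 on the other arrays, so it pushes that group upward.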
